A study of Mus musculus with 6 samples.

Results

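Solute carriers are membrane proteins that move nutrients, ions and metabolites across the plasma membrane and the membranes of organelles. The genes described here are the solute carriers expressed in mouse splenic germinal center (GC) B cells, chosen as protein-coding rows of the expression table whose symbol begins with Slc and a number and whose mean over the 6 libraries was 50 normalized counts or more. A normalized count is a gene's read count divided by a size factor of its library. The rule kept 123 of the 247 protein-coding Slc genes in a table of 19680 genes. Since the values themselves chose the members by their mean level, the levels are given as a description. The mean over all 6 libraries uses no contrast between genotypes, but 5 members passed the minimum through 1 genotype alone. Slc4a3, Slc12a4, Slc35f6 and Slc35d1 were above 50 on average in the deletion group only, and Slc25a40 in the control group only. Just inside the minimum lay Slc35d1 at 50.5, Slc35f6 at 51.2 and Slc4a3 at 51.3, and just outside it Slc36a1 at 47.6, Slc25a30 at 47.7 and Slc11a2 at 49.9988. Of the 124 Slc genes left out, 39 had a mean from 10 to 50, 41 from 1 to 10 and 44 under 1.

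The germinal center is the site in spleen and lymph node where activated B cells divide quickly, mutate their antibody genes and are selected for affinity. Dividing lymphocytes draw glucose, amino acids, phosphate, iron, zinc and nucleosides from outside, and their mitochondria exchange ADP, ATP, phosphate and carboxylates with the cytosol through the Slc25 family. Slc35 proteins carry nucleotide sugars into the Golgi and the endoplasmic reticulum, where glycoproteins such as the B cell receptor are built.

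The study deleted Senp1, whose product strips the SUMO modifier from its target proteins, and compared the RNA of GC B cells. Control mice (WT) were Senp1flox/flox, and deletion mice (cKO) were Senp1flox/flox Cγ1-Cre, all of strain C57BL/6, 6 to 8 weeks old and immunized intraperitoneally with 100 micrograms of NP-CGG, a hapten on a carrier protein. Spleen cells were sorted as B220+ CD38- FAS+ on day 14, and each genotype had 3 libraries, numbered 1 to 3. Cγ1-Cre acts in B cells that transcribe the Ighg1 constant region, as many do after activation, so the deletion is not limited to the sorted cells. The control carries the floxed alleles but no Cre, so an effect of Cre itself cannot be told apart from that of the deletion. Nothing in the labels ties a library to a mouse of its own. The p-values therefore rest on the spread among libraries, and that spread may be technical.

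Senp1 read 915, 868 and 891 in WT and 373, 425 and 398 in cKO normalized counts (log2 fold change -1.16, SE 0.12, limma adjusted p 0.111), with no overlap between the genotypes. The libraries held 3019152 to 10339054 reads assigned to genes, and WT replicate 1 and cKO replicate 1 were the deepest pair. On the first principal component, with 43.8% of the variance, the replicate 1 libraries lay at -43.9 and -38.3 and the other 4 between -0.71 and 34.1. All 10 listed GC B cell markers were measured and summed to 37410 to 42540 normalized counts per library. The 11 T cell markers summed to 164 to 270.0 in WT, and to 267, 1213 and 69.4 in cKO replicates 1, 2 and 3, the last with Cd3d, Cd3g and Cd8a at 0. The 12 macrophage markers summed to 150.4 to 361 in WT and 331 to 613 in cKO, the 10 erythroid markers to 45.0 to 61.5 and 40.1 to 147, and the 8 plasma cell markers to 10105 to 14574 and 8897 to 18134. Mitochondrial transcripts made up 2.71% to 9.83% of counts in WT and 3.66% to 19.1% in cKO. The part of these marker and mitochondrial differences in the values below was not tested. In a bulk sample, fewer cells of a type and less RNA per cell cannot be told apart.

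None of the 123 solute carriers passed the test between genotypes. No glucose, amino acid, mitochondrial or nucleotide sugar carrier was called, and the summed level of the members was 37966 ± 910.2 normalized counts in WT and 37709 ± 924 in cKO (SD, n = 3 each). The test was limma on log2(normalized count + 1) with Benjamini-Hochberg adjustment over the 14678 genes with a mean of 1 or more, and every log2 fold change below is on that scale, cKO over WT. It called 0.0% of all genes, 0 of 14678, and the adjusted p of the members ran from 0.915 to 0.999. With DESeq2 on the recovered reads 20 genes of the table and 0 members were called, and with edgeR 0 and 0. The authors' deposited table called 16 genes higher and 7 lower at an adjusted p under 0.05, none of them a member, and its smallest adjusted p among members was 0.296, for Slc4a3.

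At an unadjusted limma p under 0.05 stood 8 members, or 6.5%, beside 5.15% of all genes tested and 5.48% of the 8168 protein-coding genes with the same minimum mean. Of these, 6 were higher in cKO (4.88% of members, beside 2.98% of all genes tested) and 2 lower (1.63%, beside 2.17%). Scaling by library totals in place of the size factors turned this split into 3 higher and 4 lower, and turned that of all genes tested alike, from 438 higher and 318 lower to 275 and 403. Quantile normalization gave 5 members higher and 4 lower, beside 399 and 328 of all genes, and edgeR on recovered reads 5 and 3, beside 370 and 241. The groups did not overlap in 20 members, or 16.3%, beside 11.6% of all genes tested and 12.5% of the protein-coding genes of mean 50 or more. In 11 of them cKO was higher (8.94%, beside 6.28% of all genes tested) and in 9 lower (7.32%, beside 5.28%). A positive log2 fold change was found in 66 members (53.7%), beside 49.8% of all genes tested and 45.1% of the protein-coding genes of mean 50 or more. Leaving out the 5 members that passed through 1 genotype left 118, of which 10 were higher and 9 lower without overlap, and 5 higher and 2 lower at an unadjusted limma p under 0.05. The median log2 fold change was 0.022 over the members, with quartiles at -0.16 and 0.18, and -0.0019 over all genes tested. Of the members, 113 had a log2 fold change within 0.5 of 0, which is 91.9%, against 94.6% of the protein-coding genes of mean 50 or more. The median member's 95% interval reached 0.46 on either side of its log2 fold change, and in 109 members the whole interval lay between -1 and 1. Replicates of one genotype differed with a median coefficient of variation of 12.5% in WT and 14.9% in cKO, close to the 13.1% and 16.0% of the protein-coding genes of mean 50 or more.

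**Figure D1:**
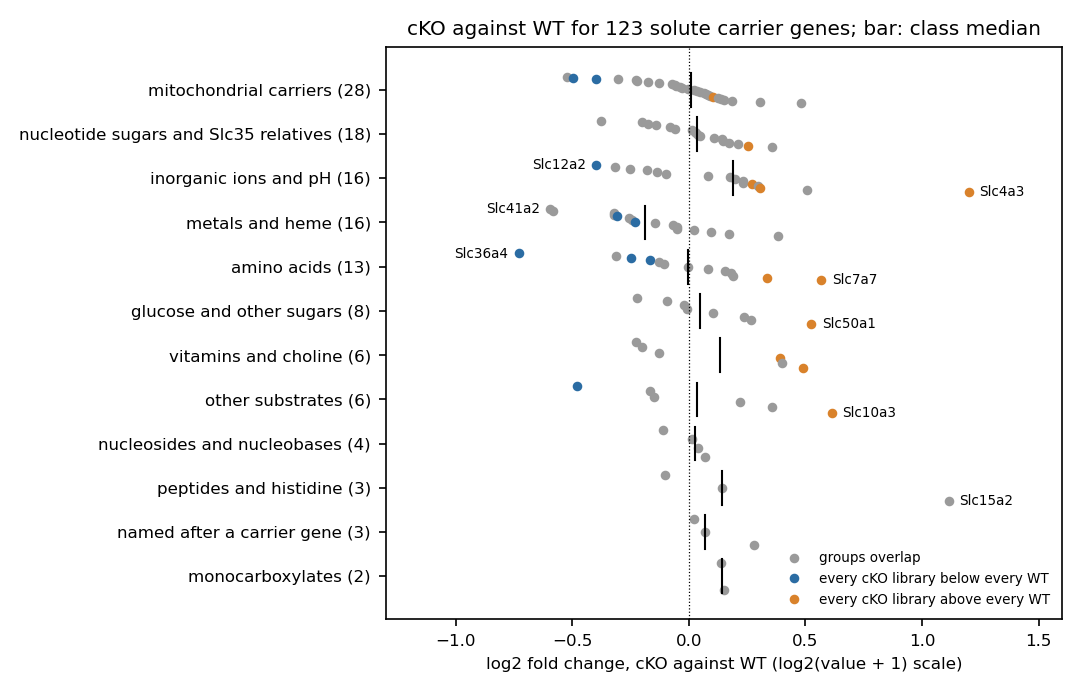
Log2 fold change (cKO over WT) of each of the 123 members, grouped by substrate class, with the class medians marked. Most points lie within 0.5 of 0, the metal and heme class has its median at -0.19, and no point passed the adjusted threshold.

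Since no member passed, the 8 with an unadjusted limma p under 0.05 are described by their values in each library, with no claim of a change. They spread over 5 of the 12 classes, 3 of them being amino acid carriers. Of these, 7 kept the genotypes apart and 1, Slc44a2, did not.

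Slc4a3 encodes a plasma membrane exchanger of chloride for bicarbonate. Its normalized counts were 33.4, 23.4 and 35.0 in WT and 55.9, 70.2 and 89.9 in cKO, so every cKO library lay above every WT library. The means were 30.6 ± 6.28 (SD, n = 3) in WT and 72.0 ± 17.1 (SD, n = 3) in cKO. The log2 fold change was 1.20 (95% interval 0.53 to 1.88, SE 0.30, unadjusted limma p 0.0032, adjusted p 0.915), the member's difference being 0.73 within replicate 1 and 1.44 within replicates 2 and 3. The WT mean of 30.6 is under the minimum of 50, so the gene entered the set through its cKO level. Slc36a4, a transporter of proline and tryptophan, had the lowest p among members that were lower in cKO. Its counts were 164, 208 and 201 in WT and 137, 110.1 and 98.0 in cKO, again without overlap, with means of 191 ± 23.6 (SD, n = 3) in WT and 115 ± 20.1 (SD, n = 3) in cKO (log2 fold change -0.73, 95% interval -1.18 to -0.28, SE 0.20, unadjusted limma p 0.0052). The difference was -0.25 within replicate 1 and -0.97 within replicates 2 and 3.

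Slc7a7 encodes a light chain that pairs with the Slc3a2 heavy chain and exports cationic amino acids in exchange for neutral ones. It read 85.4, 78.8 and 79.5 in WT and 123, 110.1 and 131 in cKO, with all cKO libraries higher (log2 fold change 0.57, 95% interval 0.15 to 0.99, unadjusted limma p 0.014), and the difference was alike within replicate 1 (0.52) and within replicates 2 and 3 (0.59). Slc50a1 encodes a sugar carrier of the SWEET family. Its counts were 168, 195 and 248 in WT and 248, 317 and 308 in cKO, where WT replicate 3 at 248 reached just below cKO replicate 1 (log2 fold change 0.53, 95% interval 0.092 to 0.96, unadjusted limma p 0.023). Both members were higher in cKO in each replicate group, with Slc50a1 at 0.56 and 0.51.

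Slc12a2 encodes the cotransporter of sodium, potassium and chloride that raises chloride inside cells. It read 339, 339 and 325 in WT and 228, 287 and 249 in cKO, with every cKO library lower (log2 fold change -0.40, 95% interval -0.73 to -0.066, unadjusted limma p 0.024). Slc1a5, the main glutamine importer of dividing lymphocytes, read 1112, 928 and 1035 in WT and 1321, 1129 and 1434 in cKO (log2 fold change 0.33, 95% interval 0.014 to 0.65, unadjusted limma p 0.042). Its genotypes lay close to each other, with WT replicate 1 and cKO replicate 2 differing by less than the SD within either genotype. Slc10a3, a bile acid carrier relative with no settled substrate, read 54.1, 55.4 and 56.4 in WT and 62.9, 114 and 85.8 in cKO, tight in WT and wide in cKO (log2 fold change 0.61, unadjusted limma p 0.046). Slc44a2, a choline transporter-like protein, read 764, 756 and 971 in WT and 883, 1162 and 1252 in cKO (log2 fold change 0.40, unadjusted limma p 0.047). Here WT replicate 3 stood above cKO replicate 1, so the groups overlapped.

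**Figure D2:**
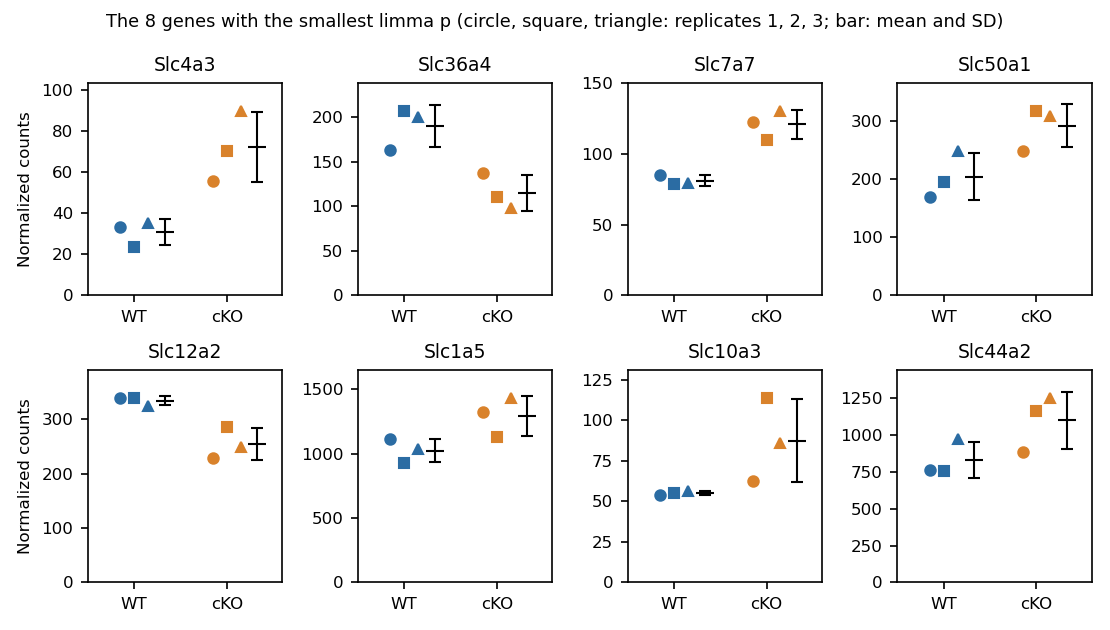
Normalized counts in each library, with group means and SD bars, of the 8 members with an unadjusted limma p under 0.05. The genotypes stay apart in 7 of the 8, and Slc44a2 overlaps.

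The promoters of the 4 members with the smallest p are printed because these members stood out most between genotypes. Each line gives the 250 bases before the transcription start on the gene's own strand, 5′ to 3′, from RefSeq on build GRCm38.p6, with matches to any of 4 searched motifs on either strand in capitals. Slc4a3 (plus strand, chr1:75546212-75546461) and Slc36a4 (plus strand, chr9:15709488-15709737) come first, then Slc7a7 (minus strand, chr14:54417703-54417952, 1 of its 5 windows) and Slc50a1 (minus strand, chr3:89270571-89270820). The Slc7a7 window is shown because it holds TGATGCAA, 1 of the 4 motifs, and another of its windows holds GGGCGG.
Slc4a3: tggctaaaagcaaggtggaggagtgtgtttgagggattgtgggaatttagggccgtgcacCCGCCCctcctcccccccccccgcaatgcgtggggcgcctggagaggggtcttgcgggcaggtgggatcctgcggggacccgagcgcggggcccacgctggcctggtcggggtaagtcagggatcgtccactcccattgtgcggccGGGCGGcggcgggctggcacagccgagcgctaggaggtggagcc
Slc36a4: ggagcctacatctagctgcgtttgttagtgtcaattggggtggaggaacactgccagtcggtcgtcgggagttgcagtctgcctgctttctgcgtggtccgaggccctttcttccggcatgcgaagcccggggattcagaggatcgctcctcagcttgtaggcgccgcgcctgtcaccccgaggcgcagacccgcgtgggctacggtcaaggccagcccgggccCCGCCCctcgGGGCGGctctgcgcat
Slc7a7: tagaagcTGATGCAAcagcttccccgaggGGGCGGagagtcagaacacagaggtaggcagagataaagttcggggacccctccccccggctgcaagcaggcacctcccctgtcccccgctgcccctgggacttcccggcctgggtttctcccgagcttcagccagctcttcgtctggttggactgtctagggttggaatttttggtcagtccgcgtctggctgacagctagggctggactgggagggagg
Slc50a1: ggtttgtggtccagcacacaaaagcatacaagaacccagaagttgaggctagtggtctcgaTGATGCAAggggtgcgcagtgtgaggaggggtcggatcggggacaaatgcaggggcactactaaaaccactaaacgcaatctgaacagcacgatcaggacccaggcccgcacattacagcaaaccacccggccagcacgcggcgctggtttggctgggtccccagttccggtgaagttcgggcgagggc

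The motifs searched were CACGTG (the E-box bound by MYC), TGATGCAA (a composite element bound by ATF4 in many amino acid response genes), GGGCGG (the GC box bound by Sp1) and the palindromic NRF1 site, and none of them contains another. The capitals in Slc4a3 and Slc36a4 are GC boxes, those in Slc50a1 are the ATF4 element, and Slc7a7 holds 1 of each. The table matched 93 of the 123 members with 127 windows, with a mean GC content of 61.1% against 53.2% over all RefSeq windows. TGATGCAA occurred in 2 member windows, 1 of Slc7a7 and 1 of Slc50a1. That is 1.57% against 0.46% of windows of protein-coding genes of mean 50 or more and 0.79% of all windows. The first 2 shares rest on 2 of 127 and 38 of 8181 windows, too few in members to read as an excess. CACGTG stood in 14 windows (11.0%, against 9.05% and 6.02%). They included 5 of the 28 windows of mitochondrial carriers and 0 of the 16 of amino acid carriers, numbers too small to set the classes apart. GGGCGG stood in 84 (66.1%, against 60.1% and 32.7%), and the NRF1 site in 1, that of Slc33a1. A match describes letters in a window and is not a site of binding.

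Levels can be set beside each other between genes only per length, so normalized counts were divided by the kilobases of exon of each gene. That length joins the exons of all annotated transcripts of the gene. It can exceed that of the transcripts expressed, which were not measured, so ranks and ratios per kb are approximate. The most abundant carriers were mitochondrial. Slc25a5 stood at 1952 normalized counts per kb, the 95th highest protein-coding gene of the table. Slc25a3 stood at 387 and Slc25a4 at 379, and the amino acid carrier Slc1a5 at 278. The 10 most abundant members made up 46.3% of the summed level per kb of all members. There were 20 members above 100 per kb, and the median member stood at 34.9 against 57.9 for protein-coding genes of mean 50 or more.

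**Figure D3:**
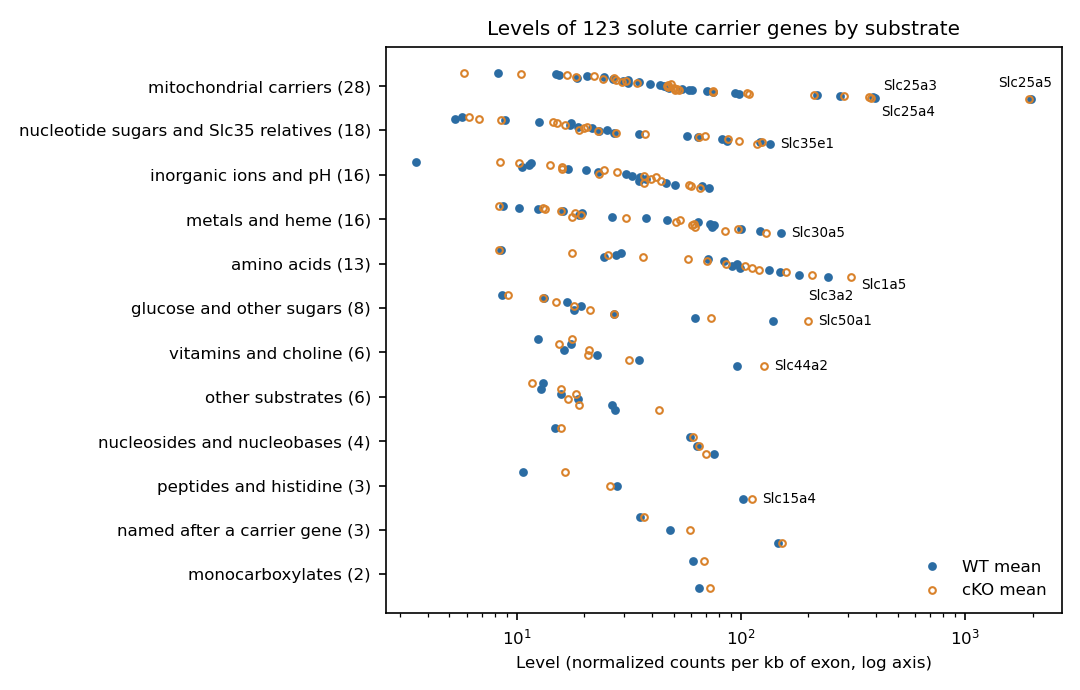
Mean level of each member in WT and cKO, in normalized counts per kb of exon on a log axis, by substrate class. Slc25a5 stands at 1952 per kb, above every other member, and the filled (WT) and open (cKO) points of most members lie close together.

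The 28 mitochondrial carriers of the 44 Slc25 genes in the table split evenly, 14 positive and 14 negative, with a median log2 fold change of 0.0095. Slc25a5 and Slc25a4 encode the ADP/ATP translocases that bring ATP out of mitochondria. The normalized counts of Slc25a5 were 3321, 3531 and 2893 in WT and 3424, 2869.8 and 3237 in cKO, and Slc25a4 read 917, 955 and 858 in WT and 937, 782 and 905 in cKO. Genotypes overlapped in both, with log2 fold changes of -0.031 (95% interval -0.35 to 0.29) and -0.060 (-0.35 to 0.23), the first turning to 0.0071 under quantile normalization. Per kb, Slc25a5 was 5.15 times as abundant as Slc25a4. The processed pseudogene Slc25a5-ps had 0.51 normalized counts in WT replicate 1 and 0 in the other 5 libraries, and the sources used here do not say how reads shared with such copies were counted. Slc25a3, the phosphate carrier of ATP synthesis, read 2287, 2126 and 2187 in WT and 2329, 1959 and 2012 in cKO (log2 fold change -0.071, and 0.025 under quantile normalization). Slc25a1, which exports citrate for lipid synthesis, read 217, 209.7 and 182 in WT and 243, 216 and 233 in cKO, with cKO replicate 2 inside the WT range.

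Among other Slc25 members, chosen for naming after their values were seen, the oxoglutarate and malate carrier Slc25a11 had a log2 fold change of -0.036 and the glutathione importer Slc25a39 of 0.15. The aspartate and glutamate exchangers of the malate-aspartate shuttle stood at 0.080 for Slc25a12 and -0.30 for Slc25a13. The mitoferrins, which bring iron in for heme and iron-sulfur clusters, stood at 0.021 for Slc25a37 and 0.30 for Slc25a28. There were 20 Slc25 members within 0.2 of 0. Slc25a53, whose substrate is not settled, had the smallest p of the family: it read 108, 102 and 145 in WT and 93.3, 87.3 and 69.4 in cKO, with every cKO library lower (log2 fold change -0.49, unadjusted limma p 0.057). Slc25a22, a glutamate carrier, had the highest log2 fold change of the family at 0.48, with cKO replicate 3 at 235 and the other cKO libraries at 111 and 141.

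Amino acid carriers numbered 13 of 36 in the table, 6 positive and 7 negative, with a median log2 fold change of -0.0034. The CD98 heavy chain Slc3a2 and its light chain Slc7a5 bring in leucine and other large neutral amino acids. Slc3a2 read 566, 596 and 759 in WT and 505, 719 and 976 in cKO, and the cKO libraries spanned the whole WT range. Slc7a5 read 651, 546 and 472 in WT and 580.2, 511 and 672 in cKO, with a log2 fold change of 0.083 (95% interval -0.30 to 0.46) and full overlap. The neighbours Slc38a1 and Slc38a2, sodium-coupled carriers of glutamine and alanine, lie 44478 bases apart on chromosome 15. Slc38a1 read 1353, 1437 and 1543 in WT and 1250.0, 1177 and 1213 in cKO, with every cKO library lower (log2 fold change -0.25, unadjusted limma p 0.065). Slc38a2 read 845, 1024 and 1679.6 in WT and 848, 1033 and 1326 in cKO, the low values being those of replicate 1 in both genotypes (log2 fold change -0.11). The arginine and lysine carrier Slc7a1, named after its values were seen, was also without overlap, at 1034, 1165 and 1125 in WT and 998, 979 and 982 in cKO, and its log2 fold change was -0.17.

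Sugar carriers numbered 8 of 17, 4 positive and 4 negative, with a median of 0.046. Slc2a1 and Slc2a3 encode the glucose transporters GLUT1 and GLUT3. Slc2a1 was 3.64 times as abundant per kb, with exon lengths of 3506 and 7245 bases and mean normalized counts of 238 and 135. Slc2a1 read 169, 181 and 303 in WT and 236, 209 and 327 in cKO, and replicate 3 was the highest library of each genotype. Slc2a3 read 119, 139 and 159.8 in WT and 112, 154 and 127 in cKO. Neither kept the genotypes apart, with log2 fold changes of 0.27 (95% interval -0.33 to 0.86) and -0.094 (-0.55 to 0.37). After their values were seen, Slc2a6, the lysosomal GLUT6, was noted at 0.24 and Slc37a4, which brings glucose 6-phosphate into the endoplasmic reticulum, at -0.0094. Monocarboxylate carriers were 2 of 10. Slc16a1, the lactate and pyruvate carrier MCT1, read 259, 279 and 273 in WT and 275, 275 and 355 in cKO, with cKO replicate 3 apart from the rest, and its relative Slc16a6 read 285, 309.8 and 359.7 in WT and 258, 366 and 445 in cKO. The exons of Slc16a6 share 21.5% of their bases with Amz2 on the other strand.

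The 18 Slc35 members of 23 in the table were 12 positive and 6 negative, with a median log2 fold change of 0.035 and a class sum of 3221, 2871 and 3223 in WT and 3163, 3086 and 3005 in cKO. None had an unadjusted p under 0.05. Slc35a1 carries CMP-sialic acid into the Golgi and read 78.9, 72.4 and 89.7 in WT and 85.7, 58.8 and 112 in cKO, with the lowest and the highest library both in cKO (log2 fold change 0.048, and -0.030 under library totals). Slc35c1 carries GDP-fucose and read 331, 216 and 259.7 in WT and 277, 296 and 284 in cKO, its log2 fold change being 0.11 (95% interval -0.30 to 0.52). Slc35c2, a relative of Slc35c1, read 233, 213 and 231 in WT and 249, 299.9 and 259 in cKO and was the 1 member of the class without overlap (log2 fold change 0.25). The members with the highest level per kb were Slc35e1 at 126 (log2 fold change -0.20) and Slc35a4 at 123 (0.027, and -0.052 under library totals). Named after its values were seen, the UDP-N-acetylglucosamine carrier Slc35a3 read 175, 324 and 319 in WT and 173, 258 and 184 in cKO. Both replicate 1 libraries were below the other 4, and its log2 fold change of -0.38 was the lowest of the class. The UDP-galactose carrier Slc35a2 had -0.083, and the sulfate donor carriers Slc35b2 and Slc35b3 had 0.013 and 0.21.

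Carriers of metals and heme numbered 16 of 28, 4 positive and 12 negative, with the lowest median of the 12 classes, -0.19. A positive log2 fold change was found in 49.8% of all genes tested and 45.1% of the protein-coding genes of mean 50 or more. Their summed normalized counts were 4460.3, 4420.2 and 4514 in WT and 4245, 3711 and 3572 in cKO, so each cKO library lay below each WT library. Of the 12 classes, 1 sum was lower in cKO without overlap, that of metals and heme, 1 was higher, that of the 3 peptide and histidine carriers, and 10 overlapped. Without Slc15a2 the peptide and histidine sums overlapped too. Without Slc41a2, the metal and heme sums of the other 15 were 3727 to 3944 in WT and 3242 to 3569 in cKO, still apart. Without Slc30a5 as well they were 2685 to 2760.3 and 2299.9 to 2582. The sums have no test of their own, and the classes were chosen with earlier results of these data known. Of single genes, 11.6% of all tested did not overlap between genotypes, 6.28% being higher in cKO and 5.28% lower. That share is no baseline for sums of genes, and sums of other gene sets of like size were not taken. All 6 members of the Slc39 family, which bring zinc and other metals into the cytosol, had a negative log2 fold change, from -0.32 to -0.049, none with an unadjusted p under 0.05. That holds for the Slc39 genes above the minimum only, as those under it went both ways. Slc39a13 read 37.9, 37.3 and 29.0 in WT and 53.1, 51.2 and 16.3 in cKO. Slc39a4 read 16.7, 10.6 and 22.2 in WT and 12.5, 15.2 and 6.13 in cKO. The 6 members of the Slc30 family, which move zinc out of the cytosol, were 3 negative and 3 positive. The summed members of each family were lower in every cKO library, again without a test, and are parts of the class sum. The Slc39 sums were 1308 to 1370.5 in WT and 1038 to 1205 in cKO. Those of Slc30 were 1594 to 1917 in WT and 1499 to 1593 in cKO, apart by a small margin. Slc30a5, which loads zinc into the secretory pathway, read 1036, 1086 and 1184 in WT and 986, 890.2 and 942 in cKO (log2 fold change -0.23), and Slc39a9, a zinc importer, read 410.5, 366 and 374 in WT and 336, 321 and 274 in cKO (-0.31, unadjusted limma p 0.060). Both were lower in every cKO library.

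Slc41a2, a magnesium transporter, differed between replicate groups. It read 734, 649 and 569.8 in WT and 677, 351 and 331 in cKO, so cKO replicate 1 lay inside the WT range and cKO replicates 2 and 3 far below it. The log2 fold change was -0.59 over all libraries (unadjusted limma p 0.052), -0.12 within replicate 1 and -0.83 within replicates 2 and 3. Leaving out cKO replicate 1 gave a limma adjusted p of 0.289, the smallest of any member under any setting tried. The libraries of cKO replicates 2 and 3 also had less of the GC B cell marker Gcsam, chosen after its values were seen, at 2484, 2342 and 1789.8 in WT and 2307, 1040.1 and 1256 in cKO. Bcl6, the transcription factor that defines GC B cells, read 2225, 2080.2 and 1698 in WT and 2140.4, 1289 and 1373 in cKO. Their part in the metal carriers' values was not tested.

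Carriers of inorganic ions and pH numbered 16 of 39, 10 positive and 6 negative, with a median of 0.19. Beside Slc4a3 and Slc12a2, Slc9a7, a proton exchanger of the trans-Golgi, and Slc20a1, a phosphate importer, had the highest levels per kb, 69.0 and 63.4. Slc9a7 read 261, 247 and 318 in WT and 244, 299.9 and 210.4 in cKO and Slc20a1 read 325, 319 and 477 in WT and 294, 256 and 451 in cKO. Both overlapped between genotypes, with log2 fold changes of -0.14 and -0.18. Noted after their values were seen, the phosphate importer Slc20a2 (221, 216 and 218 in WT and 253, 239 and 327 in cKO) and the bicarbonate carrier Slc4a8 (308, 313 and 281 in WT and 357, 332 and 400.3 in cKO) were higher in every cKO library. Their unadjusted limma p values were 0.096 and 0.089.

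The other classes were small. Vitamin and choline carriers numbered 6 of 14, and the reduced folate carrier Slc19a1 read 85.4, 80.9 and 58.9 in WT and 92.7, 102 and 98.0 in cKO, all cKO libraries higher (log2 fold change 0.39, unadjusted limma p 0.11). Slc23a2, a vitamin C carrier, read 214, 309 and 312 in WT and 209.9, 288 and 259 in cKO. The riboflavin carrier Slc52a2, noted after its values were seen, read 60.2, 73.5 and 70.9 in WT and 74.8, 104 and 112 in cKO, without overlap (log2 fold change 0.49). Nucleoside and nucleobase carriers numbered 4 of 6. Slc28a2, which concentrates purine nucleosides, read 272, 287 and 397 in WT and 255, 330.3 and 294 in cKO, and Slc29a1, the equilibrative carrier ENT1, read 270.0, 313 and 184 in WT and 269, 199 and 315 in cKO. Both overlapped, and the log2 fold change of Slc29a1 was 0.040, and -0.040 under library totals.

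Slc15a4, a histidine and peptide carrier of endolysosomes that B cells need for signals from endosomal Toll-like receptors, read 501, 474 and 654 in WT and 618, 529.5 and 639 in cKO (log2 fold change 0.14, 95% interval -0.23 to 0.51). Its relative Slc15a3 read 191, 163 and 107 in WT and 157, 175 and 98.0 in cKO. The peptide importer Slc15a2 varied most of all members among WT libraries, with a coefficient of variation of 87.1% and counts of 149, 12.8 and 73.5 in WT and 78.1, 171 and 114 in cKO. The value in WT replicate 2 rests on 12 reads, the fewest of any member in any library. Slc25a15, an ornithine carrier, varied least, at 0.73%. Slc33a1, which brings acetyl-CoA into the endoplasmic reticulum, read 87.5, 108 and 88.0 in WT and 70.5, 72.1 and 59.2 in cKO, every cKO library lower (log2 fold change -0.48, unadjusted limma p 0.051). There were 3 members that are named after a carrier gene and are not carriers themselves, of which the scaffold gene Slc9a3r1 read 307, 280.0 and 261 in WT and 308, 363 and 210.4 in cKO (log2 fold change 0.022, and -0.057 under library totals) and Slc7a6os, the neighbour of Slc7a6, read 193, 189 and 229.8 in WT and 229.9, 222 and 294 in cKO.

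The replicate number separated some members more than genotype did. Both replicate 1 libraries lay below the other 4 in 23 members, or 18.7%, beside 14.1% of all genes tested and 15.8% of protein-coding genes of mean 50 or more. They lay above the other 4 in 13 members, or 10.6%, beside 16.2% and 22.2%. The members of these groups were named after their values were seen. Slc25a36, a mitochondrial carrier of pyrimidine nucleotides, read 157, 261 and 355 in WT and 146, 283 and 269.6 in cKO, a difference of -0.93 on the log2 scale between replicate 1 and the rest. Slc25a46, a protein of the outer mitochondrial membrane, read 207, 383 and 389.6 in WT and 201, 357 and 300.3 in cKO (-0.80), and Slc30a4, a zinc carrier, read 94.0, 137 and 204 in WT and 59.1, 123 and 106 in cKO (-0.88). Opposite to these, the dicarboxylate carrier Slc25a10 read 262, 171 and 132 in WT and 232, 149.9 and 153 in cKO, 0.70 higher in replicate 1. In each of these 4 members, the replicate 1 libraries lay closer to each other in normalized counts than either did to another library of its own genotype. On the log2 scale this did not hold for Slc30a4. Its genotypes differed by -0.66 within replicate 1, and its log2 fold change was -0.58. What sets replicate 1 apart is not given in the labels.

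**Figure D4:**
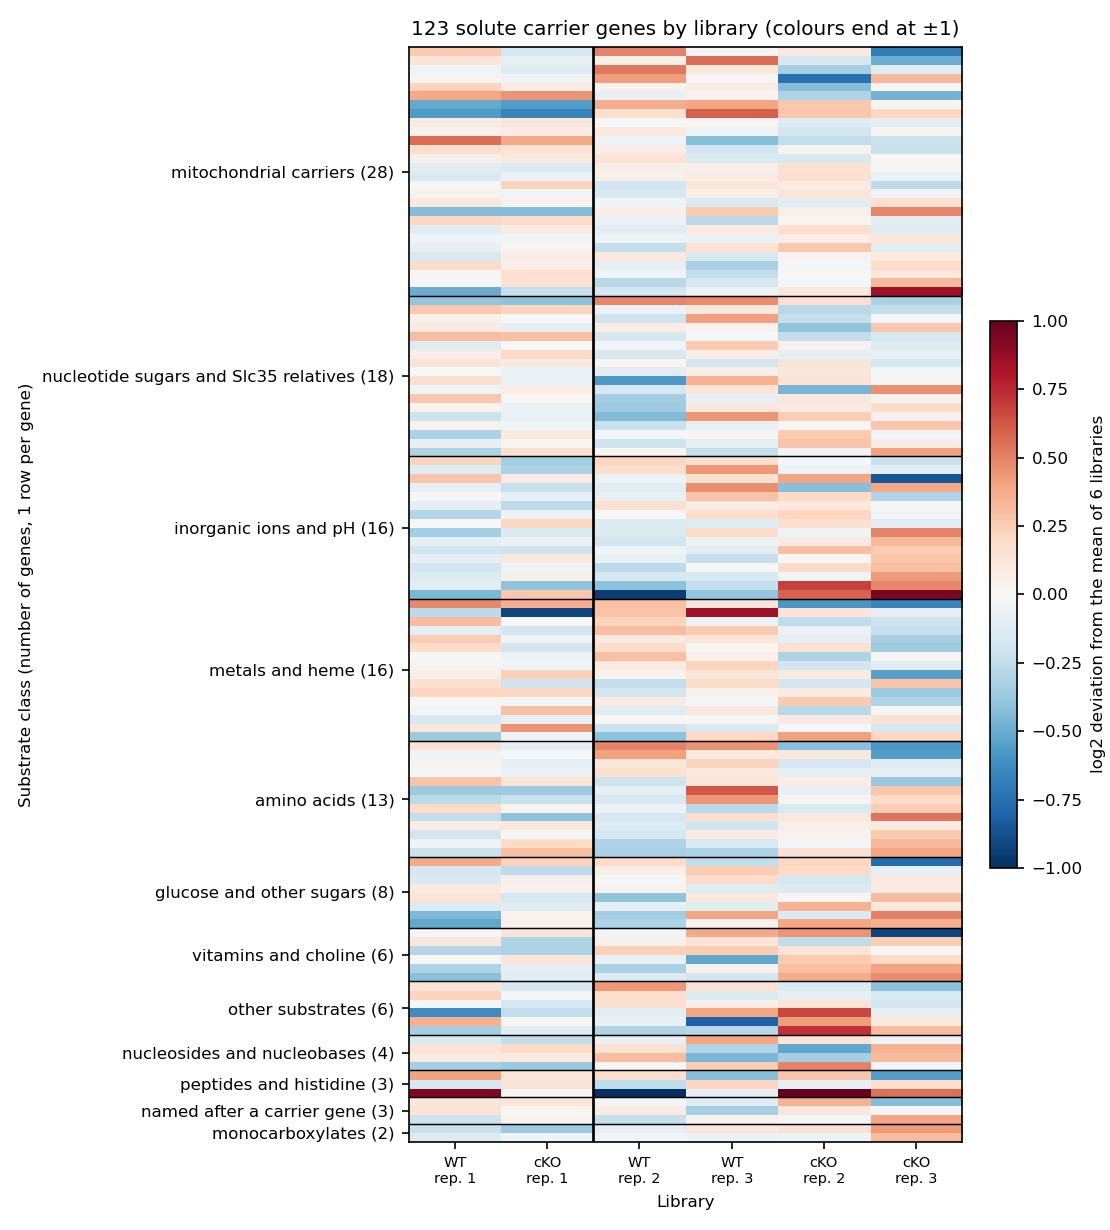
Deviation of each member (1 row per gene, grouped by substrate class) from its mean over the 6 libraries, on the log2 scale, with both replicate 1 libraries at the left. Rows that are blue or red in both replicate 1 columns and not in the others are members set apart by replicate number, such as Slc25a36 at -0.93.

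**Figure D5:**
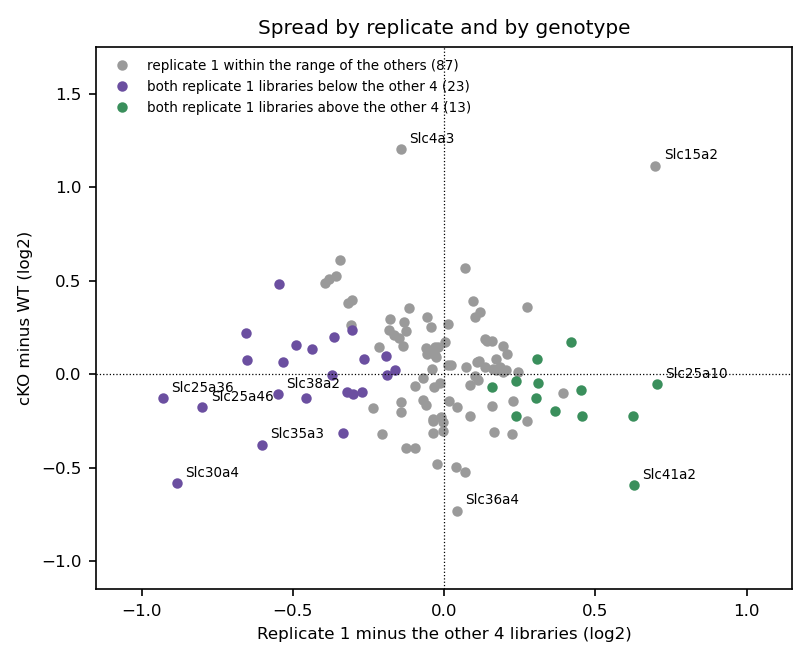
For each member, the log2 fold change of cKO over WT against the log2 difference of replicate 1 from the other libraries. Slc25a36 and Slc30a4 lie far out on the replicate axis, and Slc4a3 at 1.20 on the genotype axis.

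Genes that work with these carriers without bearing an Slc name were read from a list of 25, of which 21 were in the table. None was called, 11 had a positive and 10 a negative log2 fold change, and the median was 0.018. Basigin (Bsg), which takes MCT1 to the cell surface, read 458, 370.5 and 353 in WT and 416, 425 and 494 in cKO, and its relative embigin (Emb) read 78.4, 96.9 and 60.7 in WT and 75.4, 152 and 121 in cKO. Txnip, which lowers glucose uptake by GLUT1, read 988, 1335 and 1734 in WT and 1163, 2336 and 1097 in cKO, with cKO replicate 2 far above the other libraries. The mitochondrial pyruvate carrier is formed by Mpc1 and Mpc2. Mpc1 read 114, 82.0 and 103 in WT and 107, 125 and 81.7 in cKO (log2 fold change 0.064, and -0.014 under library totals), and Mpc2 read 87.0, 95.8 and 82.9 in WT and 100.3, 101 and 102 in cKO, all cKO libraries higher by a small margin (0.19, unadjusted limma p 0.33). Xpr1, the phosphate exporter, read 327, 353 and 425 in WT and 229, 339.7 and 210.4 in cKO, and was the 1 partner with an unadjusted limma p under 0.05 (0.033, log2 fold change -0.53). WT replicate 1 lay below cKO replicate 2, so the groups overlapped. Tmem165, a Golgi carrier of manganese, read 187, 268 and 306 in WT and 157, 207 and 251 in cKO, also with overlap.

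The members lie on 20 chromosomes. Beside Slc38a1 and Slc38a2, the closest neighbours among them were Slc7a6 and Slc7a6os on chromosome 8, 2010 bases apart, and Slc35b2 and Slc29a1 on chromosome 17, 17528 bases apart. On the annotation of build GRCm38, Slc4a3 lies at chr1:75546266-75562172, Slc36a4 at chr9:15709738-15743361, Slc7a7 at chr14:54369442-54417780 and Slc50a1 at chr3:89268246-89270570. There were 41 members that share exon bases with another gene. Among them were Slc33a1, which shares 32.0% of its exon bases with Gm26850, and Slc15a3, which shares 28.1% with Tmem132a. The sources used here do not say whether reads were counted by strand, so reads of pairs on opposite strands may not be told apart either.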

How the data were processed

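RNA of sorted GC B cells was sequenced in 3 WT and 3 cKO libraries. The submitters' processing notes name TopHat2, HISAT2, SAMtools, HTSeq, DESeq2 and build mm10, with no role or version. The deposited values are a signal, read counts per gene divided by a size factor per library: 100% of values were whole multiples, within 0.01 of a read, of what 1 read is worth (0.506 to 2.04 normalized counts), so reads were recovered. The log2 fold changes and standard errors, the test score and the p-values in the same table are the authors' deposited results and were used only where named. There were 0 other columns of samples.

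limma 3.58.1 (R 4.3.3) with a mean-variance trend was run on log2(value + 1) for genes of mean 1 or more, with Benjamini-Hochberg adjustment over all of them and a threshold of 0.05. edgeR 4.0.16 and DESeq2 1.42.0 were run on recovered reads as alternatives, beside another pseudocount, other filters, library totals, quantile normalization, a replicate block, a term for replicate 1, replicates 2 and 3 alone, and each library left out. The scripts were tested on simulated data. Exon lengths and positions came from GENCODE M21, which held all 123 members. Levels near 50 normalized counts rest on few reads in the shallow cKO libraries 2 and 3.

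The members, substrate classes and gene lists were chosen with earlier results of these data known. 3 genes that are not carriers were given their own class after the data were seen. Named members are the 12 with the smallest p, in each class the 2 highest per kb and the 1 with the smallest p, a list of well known carriers, and those at the minimum. 4 listed partners (Ankh, Flvcr1, Flvcr2 and Mfsd14a) and 1 neutrophil marker (Elane) were not analysed here. In WT libraries the other 8 neutrophil markers summed to between 13.7 and 137 normalized counts, and in cKO libraries to between 30.6 and 162. The values of 2 members are not reported here one by one. No member passed a test between genotypes, so no list has a test of its own.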

Additional observations from a re-analysis of the deposited data

How the results depend on the processing

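No member passed an adjusted p of 0.05 under any of the 16 alternatives, all of them chosen with earlier results known. Of the 816 values for the 51 named genes, 775 kept direction and side of the threshold, 39 changed sign and 2, both of Senp1, passed the threshold. The genes that changed sign under some alternative numbered 19. Library totals gave 3 members higher and 4 lower at an unadjusted p under 0.05 (2.44% and 3.25%, beside 1.87% and 2.74% of all genes tested), a members' median of -0.057, -0.27 for metals and heme and -0.070 for mitochondrial carriers, and turned Slc29a1 (-0.040), Slc35a1 (-0.030), Slc35a4 (-0.052), Slc9a3r1 (-0.057) and Mpc1 (-0.014). Quantile normalization gave 5 higher and 4 lower (all genes 2.72% and 2.23%) and turned Slc25a3 (0.025), Slc25a5 (0.0071) and Slc35a1 (-0.0093). Replicates 2 and 3 alone gave 7 higher and 5 lower (all genes 3.86% and 3.08%). The term for replicate 1 called 3 genes of the table and gave 7 members higher and 11 lower (5.69% and 8.94%, beside 4.64% and 4.52% of all genes tested), DESeq2 called 20 genes, and edgeR left 0 partners. The cause of these shifts was not tested.

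The replicate block called 1 gene of the table and gave 8 members higher and 8 lower at an unadjusted p under 0.05 (6.5% each, beside 4.78% and 4.31% of all genes tested). Same-numbered libraries deviated together with correlations of 0.69, 0.054 and 0.31, not all above 0.1, so the numbers were not taken as a pairing, although the labels call the mice paired. Not every library correlated best with its own number: WT replicate 3 stood at 0.36 with cKO replicate 2.

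Leaving out 1 library at a time gave 2 to 8 members higher and 1 to 5 lower at an unadjusted p under 0.05, 0 to 1 partners, and medians of -0.086 to 0.12 for amino acid, 0.0067 to 0.059 for mitochondrial and -0.11 to 0.084 for nucleoside carriers. It kept metals and heme negative (-0.25 to -0.15), and inorganic ions and pH (0.12 to 0.21) and vitamins and choline (0.074 to 0.24) positive. Fewest members were reached without WT replicate 2 or cKO replicate 3, with 2 higher and 1 lower each (all genes 192 and 153, and 304 and 219). Without cKO replicate 2 there were 3 higher and 3 lower (323 and 386), and without WT replicate 1 there were 4 and 5 (366 and 343). Log2 fold changes that crossed 0 ranged over -0.22 to 0.012 for Slc2a3, -0.075 to 0.40 for Slc3a2, -0.030 to 0.20 for Slc7a5, -0.34 to 0.15 for Slc15a3, -0.042 to 0.35 for Slc16a6, -0.42 to 0.0088 for Slc20a1, -0.11 to 0.019 for Slc25a4, -0.11 to 0.041 for Slc25a5, -0.21 to 0.060 for Slc28a2 and -0.18 to 0.22 for Slc29a1. They ranged over -0.17 to 0.29 for Slc35a1, -0.060 to 0.12 for Slc35a4, -0.039 to 0.27 for Slc35c1, -0.038 to 0.40 for Slc35d1, -0.32 to 0.18 for Slc38a2, -0.15 to 0.24 for Slc9a3r1, -0.074 to 0.23 for Mpc1 and -0.22 to 0.33 for Txnip. At 3 libraries a group, the median member's 95% interval of 0.46 either way on the log2 scale limits what could be seen.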

Other observations

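Several carriers that are well known in other cells lay under the minimum, and are given as values chosen after they were seen. The normalized counts of the cystine importer Slc7a11 were 1.01, 1.06 and 1.71 in WT and 0, 0 and 0 in cKO. The lactate exporter Slc16a3, or MCT4, read 10.6, 4.26 and 2.56 in WT and 5.42, 0 and 2.04 in cKO. The iron exporter Slc40a1, abundant in splenic macrophages, read 11.1, 20.2 and 8.54 in WT and 20.6, 32.3 and 6.13 in cKO, highest in cKO replicate 2, which also had the highest sum of the 12 macrophage markers (613). Slc11a1, a metal carrier of macrophage phagosomes, read 9.61, 5.32 and 5.13 in WT and 11.9, 9.49 and 12.3 in cKO. The red cell anion exchanger Slc4a1 read 0.506, 0 and 1.71 in WT and 0, 1.90 and 0 in cKO. At these depths 1 read is worth 0.506 to 2.04 normalized counts, so the lowest of these values rest on a few reads each.

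The vesicular nucleotide carrier Slc17a9, also chosen after its values were seen, read 18.2, 14.9 and 29.9 in WT and 14.1, 56.9 and 65.4 in cKO, with cKO replicates 2 and 3 above every other library and cKO replicate 1 below every WT library.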
